A study of Mus musculus with 6 samples.

Results

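The BCL2 family, the proteins that decide whether the outer membrane of the mitochondrion is opened during apoptosis, was followed in hematopoietic stem cells (HSCs) of mice given ferulic acid (FA) over a long term (l-FA). The 10 family genes were Bcl2, Bcl2l1 and Mcl1 (pro-survival), Bax and Bak1 (effectors), and Bbc3, Pmaip1, Bcl2l11, Bid and Bad (BH3-only). They were taken by gene symbol from the 27198 genes of the deposited table, each matched 1 gene, and 10 of 10 were among the 16520 genes that passed the filter on low counts. All mice were wild-type male C57BL/6 mice aged 8 to 10 weeks. Ctrl mice received the solvent, and l-FA-treated mice received FA, a plant phenolic acid, at 50 mg/kg by intraperitoneal injection once daily for 30 days. HSCs were sorted from bone marrow as lineage-, Sca-1+, c-Kit+, CD135- and CD34- cells, and cDNA primed from poly(A) was amplified and sequenced, with 3 libraries in each group. The sources used here do not state how many mice went into a library, so p-values measure the spread between libraries, which may be technical.

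Apoptosis through the mitochondrion is set by binding among BCL2 family proteins. BAX and BAK1 form pores in the outer membrane and release cytochrome c, BCL-2, BCL-XL (encoded by Bcl2l1) and MCL-1 hold them in check, and the BH3-only proteins pass on stress signals by occupying the pro-survival proteins or by activating BAX and BAK1. MCL-1 is known to be required for the survival of HSCs, and many of these proteins are controlled by cleavage, phosphorylation or degradation as well as by the level of their RNA, which is all that was measured here.

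Total counts per library ranged from 19287735 to 20380610. Kit and Ly6a, which encode the markers on which cells were sorted as positive, were detected in every library. Cd34 and Flt3, which encode the surface markers on which cells were sorted as negative, were also abundant as RNA, Cd34 at 1340 ± 18.4 CPM (counts scaled to a fixed library size) in Ctrl against 1580 ± 38.2 CPM in l-FA, and Flt3 at 759 ± 3.43 CPM in Ctrl against 1180 ± 19.8 CPM in l-FA (mean ± SD, n = 3). Of 14 HSC marker genes, 8 were higher and 1 was lower in l-FA. Beside this and the counts that follow, 25.5% of all genes tested were higher and 25.0% lower. Of 16 tested granulocyte and monocyte markers, 14 were lower and 2 higher in l-FA, and the summed level of the whole list was 23600 to 24400 CPM in Ctrl libraries and 5910 to 6240 CPM in l-FA libraries. Mpo, the neutrophil peroxidase gene, alone gave 18500 ± 505 CPM in Ctrl and 4940 ± 167 in l-FA. Immediate early genes, which cells induce quickly on stimulation or handling, were higher in l-FA for 5 of 6 genes, and their summed level was 2200 to 3570 CPM in Ctrl libraries and 6090 to 6230 CPM in l-FA libraries. Within Ctrl, Jun, a gene of that list named after its values were seen, was at 135 CPM in replicate 1 and at 1470 CPM in replicates 2 and 3. Of 5 megakaryocyte markers, 3 were higher, and the summed level of the list was 190 to 196 CPM in Ctrl libraries and 267 to 277 CPM in l-FA libraries. Most of that sum was Itga2b (173 ± 3.55 CPM in Ctrl, 240 ± 2.51 in l-FA), and Pf4 and Ppbp did not pass, genes named after their values were seen. Of 8 tested erythroid markers, 2 were higher and 1 lower. Of 3 tested B cell markers, 1 was higher. The 2 tested T and NK cell markers were lower, and the summed level of the list was 546 to 567 CPM in Ctrl libraries and 302 to 313 CPM in l-FA libraries. Nearly all of that sum was Nkg7 (556 ± 12.2 CPM in Ctrl, 307 ± 4.80 in l-FA), while Klrb1c was at 3.98 ± 0.207 and 1.36 ± 0.678 CPM. The T cell genes Cd3e and Cd3d did not pass the filter on low counts. These 4 genes were named after their values were seen. These lists moved with the group beside every difference given below, and their part in them was not tested. Libraries of the same group were not copies of each other, with a median chi-square per gene of 0.94 to 1.18 between pairs, where counting error gives 0.455.

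By edgeR's quasi-likelihood test, 4 of the 10 family genes passed an adjusted p of 0.05, beside 50.5% of all genes tested. Mcl1 and Bbc3 were higher in HSCs of l-FA-treated mice (25.5% of all genes were higher), and Bax and Bid were lower (25.0% of all genes were lower). The same 4 genes were those whose Ctrl and l-FA libraries did not overlap, a pattern found in 60.3% of all genes tested. A share of 4 in 10 is not above that background. Among the 3 pro-survival genes 1 was higher and none lower, and among the 7 pro-death genes 1 was higher and 2 were lower. The median log2 fold change was -0.15 over the 10 genes, -0.03 over the pro-survival and -0.27 over the pro-death genes, beside 0.00 over all genes tested. No family gene was changed over 2-fold with an adjusted p under 0.05 by edgeR or by DESeq2 (0 of 10, beside 11.8% of all genes by edgeR). At an unadjusted p under 0.05 edgeR counted 5 of 10, the 4 above and Pmaip1. At least 50.5% of all genes tested pass that looser limit, since every gene past the adjusted limit also passes it.

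Promoter sequence is shown for the 4 genes that passed, so that the genes that fell and those that rose can be read side by side. For Bbc3, only the windows that hold a motif named below are shown. The windows are the 250 bases before a RefSeq transcription start in GRCm38.p6, printed 5′ to 3′ on the strand of the gene. Capitals mark an E-box (CACGTG, its own reverse complement) or a FOXO motif (TGTTTAC or its reverse complement GTAAACA), motifs bound by basic helix-loop-helix and forkhead factors.
Bid, chr6:120916825-120917074, minus strand: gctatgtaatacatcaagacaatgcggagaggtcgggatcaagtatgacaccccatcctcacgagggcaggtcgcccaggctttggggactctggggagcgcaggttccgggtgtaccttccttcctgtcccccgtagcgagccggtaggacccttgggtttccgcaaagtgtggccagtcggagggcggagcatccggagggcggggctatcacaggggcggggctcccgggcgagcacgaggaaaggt
Bax, chr7:45466899-45467148, minus strand: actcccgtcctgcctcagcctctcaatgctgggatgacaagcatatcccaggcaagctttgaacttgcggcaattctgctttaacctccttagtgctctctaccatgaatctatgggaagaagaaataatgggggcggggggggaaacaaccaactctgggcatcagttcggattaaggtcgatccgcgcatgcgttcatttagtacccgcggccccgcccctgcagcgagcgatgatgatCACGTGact
Bbc3, the second start, chr7:16310011-16310260, plus strand: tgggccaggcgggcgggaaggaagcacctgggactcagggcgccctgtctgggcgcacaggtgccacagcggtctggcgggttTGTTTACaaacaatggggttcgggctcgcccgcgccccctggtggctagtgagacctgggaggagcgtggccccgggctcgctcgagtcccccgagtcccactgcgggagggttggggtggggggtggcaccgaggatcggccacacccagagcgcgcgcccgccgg
Bbc3, the third start, chr7:16310181-16310430, plus strand: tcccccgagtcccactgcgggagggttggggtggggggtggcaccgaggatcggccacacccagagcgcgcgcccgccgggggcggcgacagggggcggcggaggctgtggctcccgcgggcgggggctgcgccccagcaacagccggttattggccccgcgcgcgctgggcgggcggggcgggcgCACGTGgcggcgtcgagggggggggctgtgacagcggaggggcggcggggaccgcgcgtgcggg
Mcl1, chr3:95658471-95658720, plus strand: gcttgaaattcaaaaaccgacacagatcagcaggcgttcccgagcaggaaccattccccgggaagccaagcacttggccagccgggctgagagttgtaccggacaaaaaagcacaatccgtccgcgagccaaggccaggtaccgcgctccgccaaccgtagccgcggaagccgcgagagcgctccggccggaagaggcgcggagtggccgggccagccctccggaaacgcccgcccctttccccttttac

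Of 32851 windows in the RefSeq table, 6.02% held the E-box and 3.17% the FOXO motif. The table had windows for 9 of the 10 family genes, 15 in all. The E-box was in 2 of these 15 windows, its first base 9 bases before the start of Bax and 64 bases before the third start of Bbc3. The FOXO motif was also in 2 of 15, before the second start of Bbc3 (167 bases) and before 1 of the starts of Bcl2l11 (227 bases). The windows of Bid and Mcl1 held neither. Bax and Bbc3, which share the E-box, changed in opposite directions. The share of G and C was 72.4% and 81.6% in the Bbc3 windows shown, against 54.0% in that of Bax. The window of the first Bbc3 start, chr7:16309333-16309582, held neither motif, had a share of 76.4% and is not shown. The Bbc3 windows shown overlap each other, so windows of 1 gene are not always separate stretches.

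Bid showed the clearest difference in the family. BID is a BH3-only protein that caspase-8 cleaves, which ties the death receptors at the cell surface to the mitochondrion. Its level in the 3 Ctrl libraries was 181, 184 and 184 CPM after TMM normalization, and in the 3 l-FA libraries 130.0, 132 and 132 CPM. Every l-FA library lay below every Ctrl library, and the spread within each group was narrow. The mean fell from 183 ± 1.55 to 132 ± 1.47 CPM (SD, n = 3), which is 28.2% lower (log2 fold change -0.48, standard error 0.0249, 95% interval -0.54 to -0.42, adjusted p = 3.26e-05 from edgeR). The coefficient of variation between libraries was 0.845% in Ctrl and 1.12% in l-FA, within the 1.68% and 1.93% that counting error alone gives. In bulk samples such as these, fewer cells that express a gene and less RNA of it per cell cannot be told apart. Bid (ENSMUSG00000004446) is listed on chromosome 6 from 120868891 to 120893814 in GRCm39, and 913 bases of it overlap Bcl2l13 on the opposite strand, a relative with 2295 to 2436 counts in Ctrl and 2501 to 2598 in l-FA libraries. Whether reads were counted by strand is not stated, and the reads the overlapping genes share cannot be told apart.

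Bax, the effector that moves from the cytosol to the mitochondrion, was also lower in l-FA. Its level was 66.1, 85.3 and 72.0 CPM in Ctrl and 55.5, 54.5 and 58.3 CPM in l-FA. The groups did not overlap, Ctrl replicate 2 was the highest of the 6 libraries, and the spread was wider in Ctrl. The mean was 74.5 ± 9.80 CPM in Ctrl and 56.1 ± 1.96 CPM in l-FA (mean ± SD, n = 3). The log2 fold change was -0.41 (standard error 0.0934, 95% interval -0.63 to -0.18, adjusted p = 0.0107 from edgeR). Against a change of 1.2-fold in place of no change, a test that 27.3% of all genes passed, Bax had an adjusted p of 0.0934 from edgeR. With 1 library left out in turn, the log2 fold change of Bax ranged from -0.49 to -0.30, the latter without Ctrl replicate 2. Bax (ENSMUSG00000003873) is listed on chromosome 7 from 45111121 to 45116322. Of its bases, 915 overlap Gm45808 on the same strand, a gene with 0 to 4 counts in Ctrl and 0 to 14 in l-FA libraries.

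Bak1, the effector that sits in the mitochondrial membrane, was the least abundant member. It had 19, 24 and 39 counts in Ctrl and 46, 40 and 34 in l-FA, that is 0.99, 1.29 and 1.96 CPM against 2.19, 1.99 and 1.70 CPM. Ctrl replicate 3 lay within the l-FA range, and the groups overlapped. The log2 fold change was 0.47 (95% interval -0.17 to 1.11, adjusted p = 0.189 from edgeR), an interval that holds both no change and a rise of 2-fold. Without Ctrl replicate 3 it was 0.78 with an adjusted p of 0.035 from edgeR. Bak1 (ENSMUSG00000057789; chromosome 17, 27238784 to 27247983) lies wholly within 2 listed genes on the opposite strand, Gm50253 and Ggnbp1, so its counts are uncertain.

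Mcl1 was the pro-survival gene that rose. The libraries gave 55.9, 51.7 and 55.5 CPM in Ctrl and 62.9, 60.2 and 60.0 CPM in l-FA. The groups did not overlap, with Ctrl replicate 2 the lowest library and l-FA replicate 1 the highest. The mean was 54.3 ± 2.33 CPM in Ctrl and 61.0 ± 1.62 CPM in l-FA (mean ± SD, n = 3), a 1.12-fold change (log2 0.17, standard error 0.0466, 95% interval 0.06 to 0.28, adjusted p = 0.0231 from edgeR). The call was lost without Ctrl replicate 2 (log2 0.13, adjusted p = 0.0674 from edgeR) and without l-FA replicate 1 (log2 0.16, adjusted p = 0.0586 from edgeR). Mcl1 (ENSMUSG00000038612) is listed on chromosome 3 from 95566099 to 95570487.

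Bcl2, the founding member of the family, differed little. Its level was 205, 185 and 190.0 CPM in Ctrl and 184, 196 and 188 CPM in l-FA. The l-FA libraries lay almost wholly within the Ctrl range. The log2 fold change was -0.03 (adjusted p = 0.606 from edgeR), and its 95% interval, -0.14 to 0.08, bounds how far the groups could differ. Bcl2 (ENSMUSG00000057329) is listed on chromosome 1 from 106465908 to 106642004.

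Bcl2l1, the gene of BCL-XL, was decided by 1 library. The Ctrl libraries gave 44.2, 44.5 and 46.3 CPM, and the l-FA libraries 28.9, 26.7 and 49.1 CPM. In l-FA, replicates 1 and 2 lay below all Ctrl libraries and replicate 3 above all of them. The mean was 45.0 ± 1.13 CPM in Ctrl and 34.9 ± 12.4 CPM in l-FA (mean ± SD, n = 3). The log2 fold change was -0.37 (standard error 0.225, 95% interval -0.91 to 0.17, adjusted p = 0.219 from edgeR). Without l-FA replicate 3 the log2 fold change was -0.68 (adjusted p = 0.000926 from edgeR). Bcl2l1 (ENSMUSG00000007659) is listed on chromosome 2 from 152622588 to 152673648.

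**Figure D1:**
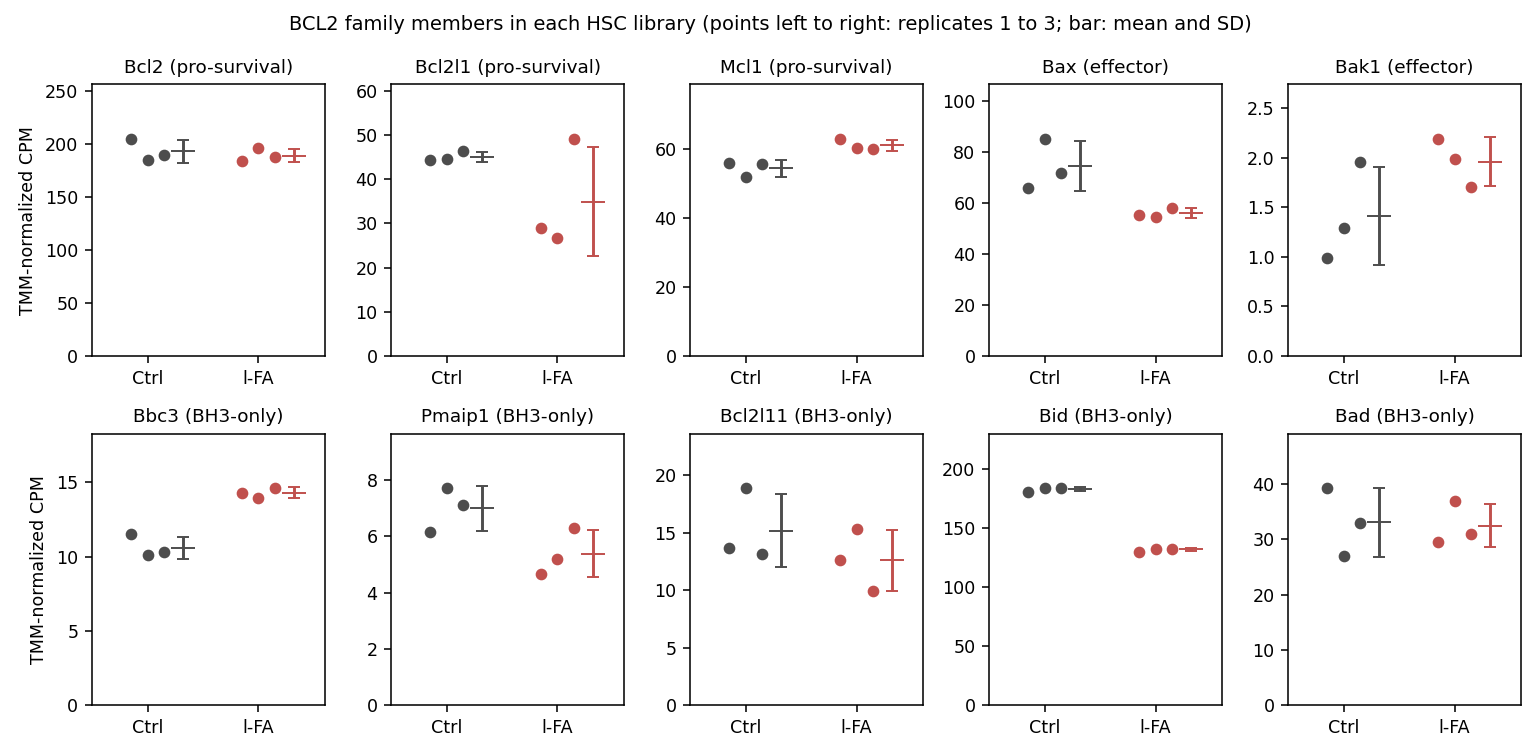
Level of each family gene in each library, as TMM-normalized CPM on a linear axis that starts at 0, for 3 Ctrl and 3 l-FA libraries with the mean and SD beside the points. Bid falls in all 3 l-FA libraries with almost no spread, Bbc3 and Mcl1 rise, Bax falls, and 1 l-FA library of Bcl2l1 stands at 49.1 CPM above the other 2.

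Bbc3, which encodes the BH3-only protein PUMA and is known as a p53 target, was the pro-death gene that rose. Its level was 11.5, 10.1 and 10.3 CPM in Ctrl and 14.3, 13.9 and 14.6 CPM in l-FA. Every l-FA library lay above every Ctrl library. The mean went from 10.6 ± 0.737 to 14.3 ± 0.381 CPM (SD, n = 3), a 1.34-fold change (log2 0.42, standard error 0.0788, 95% interval 0.23 to 0.61, adjusted p = 0.00446 from edgeR). Bbc3 (ENSMUSG00000002083) is listed on chromosome 7 from 16042318 to 16052130. Trp53, the gene of p53 itself, had a log2 fold change of -0.08 (adjusted p = 0.0331 from edgeR), and this call was lost in 8 of 13 alternative analyses.

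Pmaip1 encodes NOXA, a BH3-only protein that binds MCL-1 and is likewise known as a p53 target. Its level was 6.15, 7.72 and 7.13 CPM in Ctrl and 4.67, 5.19 and 6.31 CPM in l-FA. The groups overlapped, since l-FA replicate 3 lay above Ctrl replicate 1. The log2 fold change was -0.38 (standard error 0.149, 95% interval -0.73 to -0.02, adjusted p = 0.0747 from edgeR). It passed when l-FA replicate 3 was left out, at -0.49 with an adjusted p of 0.0369 from edgeR. Pmaip1 (ENSMUSG00000024521) is listed on chromosome 18 from 66591604 to 66598636. Of the 3 family genes known best as targets of p53, Bbc3 rose, Bax fell and Pmaip1 did not pass.

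Bcl2l11, which encodes BIM and is known to respond to cytokine withdrawal, had 13.7, 18.9 and 13.2 CPM in Ctrl and 12.6, 15.3 and 9.91 CPM in l-FA. The libraries of both groups were widely spread and overlapped. The log2 fold change was -0.27 (95% interval -0.75 to 0.21, adjusted p = 0.303 from edgeR), and it was -0.09 without Ctrl replicate 2, -0.11 without l-FA replicate 3 and -0.42 without l-FA replicate 2. Bcl2l11 (ENSMUSG00000027381) is listed on chromosome 2 from 127967958 to 128004467. Bad, whose protein is held inactive by phosphorylation, had 39.3, 27.0 and 33.0 CPM in Ctrl and 29.6, 37.0 and 31.0 CPM in l-FA. All l-FA libraries fell inside the Ctrl range, with a log2 fold change of -0.03 (95% interval -0.39 to 0.34, adjusted p = 0.904 from edgeR). Bad (ENSMUSG00000024959; chromosome 19, 6919229 to 6929267) overlaps Gpr137 by 620 bases on the opposite strand.

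**Figure D2:**
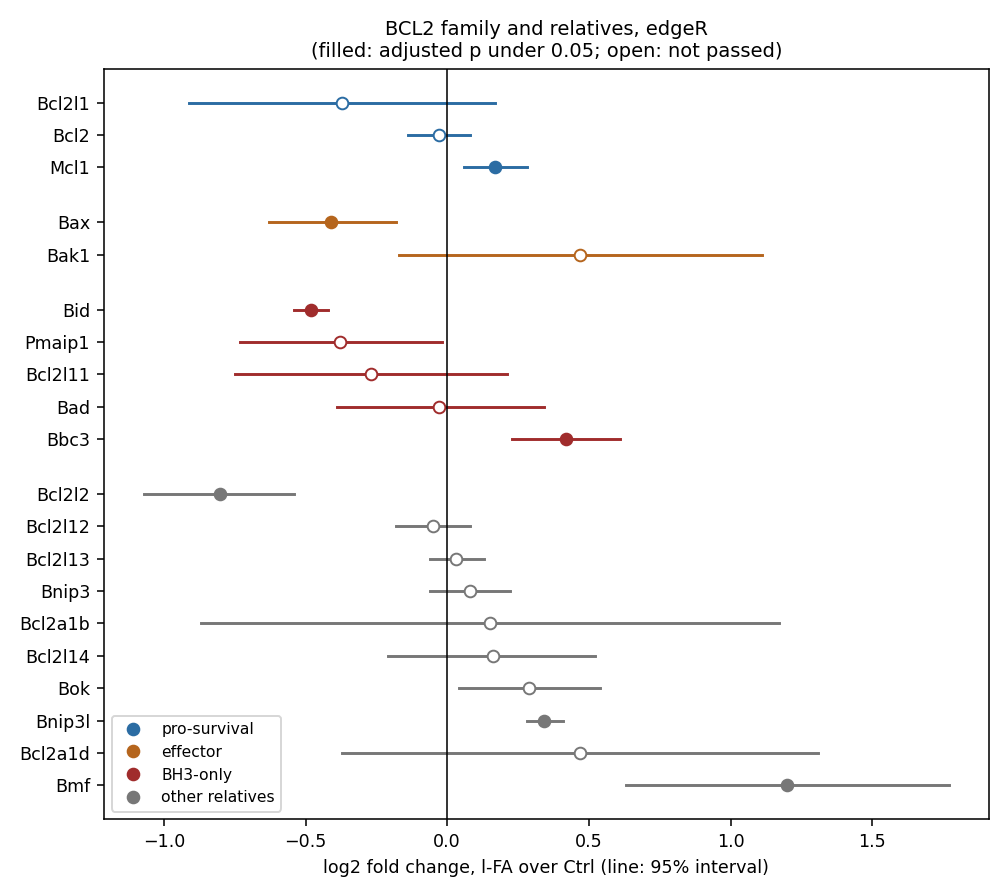
Log2 fold change of l-FA over Ctrl on the horizontal axis for the 10 family genes and 10 other BCL2 relatives, with 95% intervals as lines and filled points for an adjusted p under 0.05 by edgeR. Among the family genes the interval of Bid is the narrowest, -0.54 to -0.42, and those of Bcl2, Bcl2l1, Bak1, Bcl2l11 and Bad span 0.

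Levels were compared between genes on the FPKM scale, which divides counts by gene length and by the library total. In Ctrl the order was Bid (32.6 ± 0.351 FPKM), Bax (28.0 ± 3.60), Bcl2 (18.7 ± 1.02), Mcl1 (13.1 ± 0.613), Bad (4.81 ± 0.906), Bcl2l1 (3.68 ± 0.110), Bbc3 (3.43 ± 0.239), Pmaip1 (1.11 ± 0.124), Bcl2l11 (1.10 ± 0.223) and Bak1 (0.297 ± 0.106) (SD, n = 3). Neighbours in this order did not overlap between libraries, except Bcl2l1 with Bbc3 and Pmaip1 with Bcl2l11. In l-FA the first 5 kept their places, at 24.7 ± 0.186 FPKM for Bid, 22.3 ± 0.759 for Bax, 19.3 ± 0.588 for Bcl2, 15.6 ± 0.471 for Mcl1 and 4.99 ± 0.590 for Bad. Bbc3 (4.87 ± 0.132 FPKM) then stood above Bcl2l1 (3.01 ± 1.06), its libraries overlapping those of Bad, and Bak1 was again last at 0.435 ± 0.0558 FPKM. Bid, Bax, Bcl2 and Mcl1 together made up 86.5% ± 0.917 of the summed FPKM of the family in Ctrl and 84.4% ± 0.780 in l-FA, within which the share of Bid went from 30.5% ± 0.398 to 25.4% ± 0.210.

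The length used matters for this order. The lengths behind the FPKM values were 1.18 times the principal transcript for Mcl1 and 4.64 times for Bcl2l1, which places Bcl2l1 and Bad (4.61 times) low. Per kilobase of the APPRIS principal transcript, the order in Ctrl was Bax (85.9 ± 11.3 CPM per kb), Bid (83.7 ± 0.707), Bcl2 (26.9 ± 1.45), Bad (22.8 ± 4.27), Bcl2l1 (17.5 ± 0.440) and Mcl1 (15.9 ± 0.683). Bax and Bid were the most abundant and Bak1 the least abundant on both scales. FPKM values also follow the library total rather than the TMM factors, which were 0.9685 to 0.9787 in Ctrl and 1.025 to 1.032 in l-FA. Levels on the FPKM scale are therefore a few percent higher in l-FA than on the CPM scale, as for Bcl2, whose mean was 18.7 and 19.3 FPKM but 193 and 189 CPM in Ctrl and l-FA. Ratios within a library do not depend on this.

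Pro-survival and pro-death genes were then set against each other within each library. The summed FPKM of the 3 pro-survival genes was 36.9, 33.8 and 35.8 in Ctrl and 37.5, 37.6 and 38.6 in l-FA. That of the 7 pro-death genes was 68.7, 74.5 and 70.9 in Ctrl and 58.3, 59.3 and 59.9 in l-FA. As TMM-normalized CPM, the pro-survival sum was 281 to 305 in Ctrl libraries and 276 to 297 in l-FA libraries, which overlap. The pro-death sum was 319 to 334 CPM in Ctrl libraries and 249 to 260 CPM in l-FA libraries. The summed level of the pro-death genes was thus lower in every l-FA library, from 71.4 ± 2.94 to 59.2 ± 0.766 FPKM (SD, n = 3). Most of this sum was Bid (mean 32.6 in Ctrl, 24.7 in l-FA) and Bax (28.0 and 22.3). Mean FPKM was also lower in l-FA for Pmaip1 (1.11 and 0.903) and Bcl2l11 (1.10 and 0.958). It was higher in l-FA for Bbc3 (3.43 and 4.87), so the fall was not shared by every gene of the class. Mean FPKM was also higher for Bad (4.81 and 4.99) and Bak1 (0.297 and 0.435). Pmaip1, Bcl2l11, Bad and Bak1 did not pass edgeR, and as TMM-normalized CPM the mean of Bad was 33.1 in Ctrl and 32.5 in l-FA. The ratio of pro-survival to pro-death FPKM was 0.537, 0.454 and 0.505 in Ctrl and 0.642, 0.634 and 0.645 in l-FA, without overlap. Its mean was 0.499 ± 0.0420 in Ctrl and 0.641 ± 0.00563 in l-FA, 1.28 times as high in l-FA. The ratio was 1.24 times as high from summed CPM, 1.22 times from CPM per principal transcript length and 1.19 times without Bid, and the groups did not overlap in any of these. Bax stayed in the sum without Bid, and no ratio without both genes was taken. No p is given for a sum over genes that were chosen for it.

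With genes weighted alike within each class, whatever their level, the groups were not separated. The mean log2 CPM of the pro-survival genes minus that of the pro-death genes was 2.20, 2.0 and 2.06 in Ctrl and 2.03, 1.92 and 2.29 in l-FA. The means were 2.09 ± 0.103 and 2.08 ± 0.186 (SD, n = 3). In this score each pro-survival gene carries more weight than each pro-death gene, since the classes differ in size, and the widely spread l-FA libraries of Bcl2l1 enter with the same weight as Bcl2 and Mcl1. Leaving out 1 library at a time moved the difference of this score, l-FA minus Ctrl, between -0.111 and 0.0708, and the ratio of summed FPKM between 1.23 and 1.34 times.

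**Figure D3:**
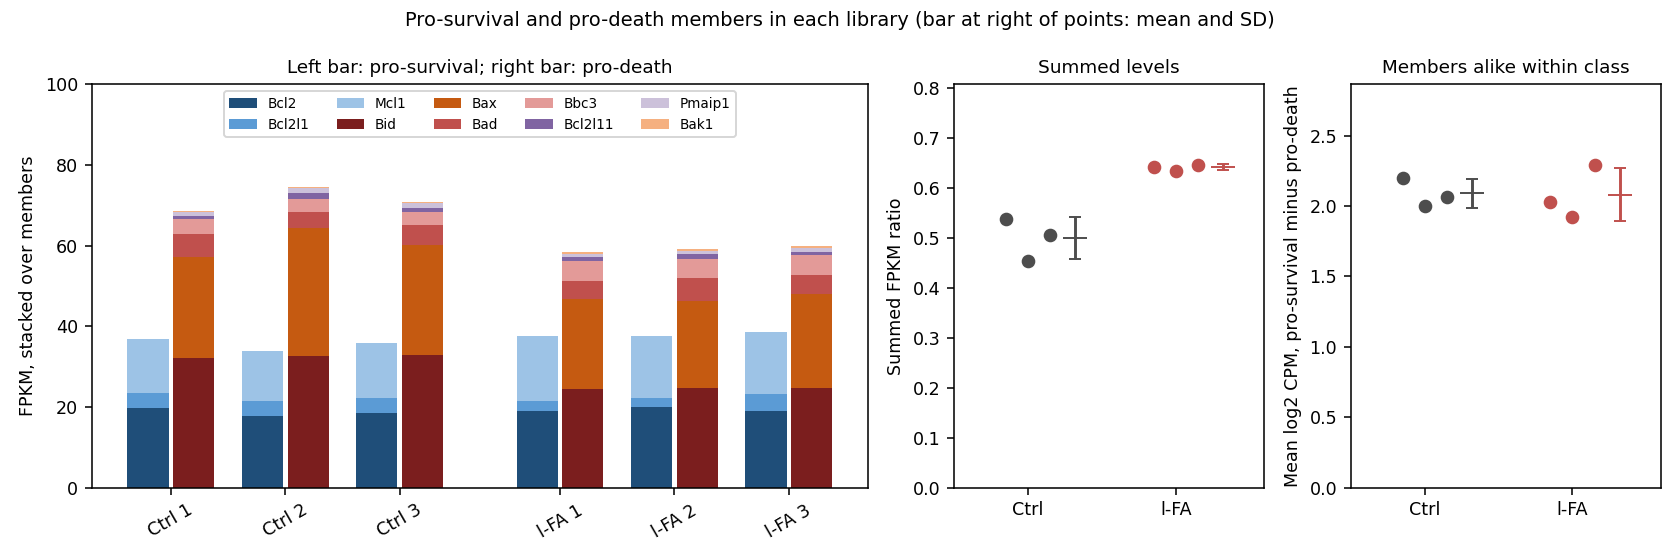
Left, FPKM of each pro-survival gene and of each pro-death gene stacked for every library. Middle, the ratio of both sums, with Ctrl libraries from 0.454 to 0.537 and l-FA libraries from 0.634 to 0.645. Right, the difference of mean log2 CPM with genes weighted alike within each class, where the groups overlap. Bars beside points show the mean and SD of 3 libraries, and all axes start at 0.

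Single pairs of proteins that bind each other were described in the same way. Mcl1 over Bid was 0.418, 0.381 and 0.409 in Ctrl and 0.657, 0.617 and 0.615 in l-FA (FPKM ratio, 1.56 times as high). Mcl1 over Bax was 1.47 times and Bcl2 over Bax 1.28 times as high in l-FA, both without overlap of the libraries. Mcl1 had risen and Bid and Bax had fallen without overlap, so the separation in both Mcl1 ratios follows from those differences. Bcl2l1 over Bax overlapped, at 0.133 ± 0.0170 in Ctrl and 0.134 ± 0.0424 in l-FA (mean ± SD, n = 3). In the opposite sense, Bbc3 over Bcl2 was 0.183 ± 0.00296 in Ctrl and 0.252 ± 0.0137 in l-FA, and Bbc3 over Mcl1 was 1.2 times as high. Relative to Bcl2 and to Mcl1, then, the RNA of PUMA was higher in l-FA.

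The genes whose pattern over the 6 libraries was most like that of Bid were Ipo4, Dnajc3 and Atp6ap2. After each gene was centred on its mean, their log2 CPM values differed from those of Bid by a root mean square of 0.0133, 0.0163 and 0.0163, with log2 fold changes of -0.49, -0.50 and -0.47. The genes were chosen for this closeness, so fold changes near that of Bid follow from the choice.

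Of 15 further BCL2 relatives, 13 were in the table and 10 passed the filter on low counts. By edgeR 2 were higher in l-FA, 1 was lower and 7 did not pass, beside a median log2 fold change of 0.15. Bmf, a BH3-only gene, had 38, 27 and 21 counts in Ctrl and 70, 62 and 78 in l-FA. Every l-FA library lay above every Ctrl library, with a log2 fold change of 1.2 (95% interval 0.63 to 1.77, adjusted p = 0.00577 from edgeR), the only relative past 2-fold. Bnip3l, a mitophagy receptor of the outer membrane, went from 175 ± 4.28 to 221 ± 1.90 CPM (log2 0.34, adjusted p = 0.000149 from edgeR). Bcl2l2, which encodes the pro-survival protein BCL-W, went from 6.93 ± 0.667 to 3.97 ± 0.134 CPM (log2 -0.80, adjusted p = 0.0012 from edgeR). Its counts were 146, 129 and 125 in Ctrl and 83, 77 and 82 in l-FA, without overlap. Bok, an effector-like relative, had a log2 fold change of 0.29 (adjusted p = 0.0557 from edgeR), and passed with upper-quartile scaling (adjusted p = 0.0406 from edgeR). Bcl2l12, Bcl2l13, Bcl2l14 and Bnip3 had log2 fold changes from -0.05 to 0.16 and did not pass. Bcl2a1b (0.15) and Bcl2a1d (0.47) did not pass either, and their counts are uncertain because the Bcl2a1 genes are near-identical copies. Bcl2a1a, Bik and Bcl2l15 did not pass the filter.

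Downstream of BAX and BAK1, 11 of 17 genes of the caspase cascade passed edgeR, 5 higher and 6 lower, with a median log2 fold change of -0.02. Genes of proteins held inside the mitochondrion were among those that fell. Cycs, the gene of cytochrome c, which BAX and BAK1 release, went from 151 ± 2.74 to 87.9 ± 1.96 CPM (log2 -0.78, adjusted p = 1.4e-05 from edgeR). Htra2, a mitochondrial protease that binds inhibitors of apoptosis, had a log2 fold change of -0.52 (adjusted p = 4.73e-05 from edgeR), and Endog, a mitochondrial nuclease, of -1.06 (adjusted p = 0.000189 from edgeR). Diablo, also released from mitochondria and named after its values were seen, rose instead (log2 0.10, adjusted p = 0.0356 from edgeR). Birc2, an inhibitor of apoptosis that acts as a ubiquitin ligase, rose from 58.9 ± 0.261 to 105 ± 1.64 CPM (log2 0.83, adjusted p = 1.1e-05 from edgeR). Apaf1, the scaffold of the apoptosome, had a log2 fold change of -0.19 (adjusted p = 0.0273 from edgeR) and Casp9, the caspase it activates, of 0.18 (adjusted p = 0.021 from edgeR), but these calls were lost in 7 and 5 of 13 alternatives. All 3 genes of the VDAC channels, pores of the outer membrane of which VDAC2 is known to bind BAK1, were lower, Vdac1 by a log2 fold change of -0.20, Vdac2 of -0.39 and Vdac3 of -0.24 (adjusted p = 0.00182, 0.00129 and 0.00199 from edgeR).

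Upstream, the death receptor branch that leads to BID had 8 tested genes of 9, of which 1 was higher and 1 lower. Cflar, whose protein restrains caspase-8, was higher (log2 0.47, adjusted p = 0.00161 from edgeR), and Tradd, an adaptor of the TNF receptor, was lower (log2 -0.26, adjusted p = 0.00312 from edgeR). Of 14 tested transcription factors known to act on family genes, 6 were higher and 4 lower, with a median of 0.06. Ddit3, the gene of CHOP, which is induced by stress of the endoplasmic reticulum, had the largest rise (log2 0.89, adjusted p = 0.000566 from edgeR), and Stat5b, which carries cytokine signals, also rose (log2 0.40, adjusted p = 7.52e-05 from edgeR). E2f1, a cell cycle factor, fell (log2 -0.82, adjusted p = 0.00205 from edgeR), as did the forkhead factor Foxo1 (log2 -0.62, adjusted p = 0.0104 from edgeR). Of 13 tested genes whose products act on the proteins (kinases, ubiquitin enzymes and dynein light chains that tether BIM and BMF), 3 were higher and 1 lower. Pim2, Mdm2 and Pim3 rose by 0.27, 0.25 and 0.24 on the log2 scale, and Akt1, a kinase that phosphorylates BAD, fell by 0.18 (adjusted p = 0.0029, 0.0131, 0.00537 and 0.00911 from edgeR). Beside all these counts, 50.5% of all genes tested passed in either direction.

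**Figure D4:**
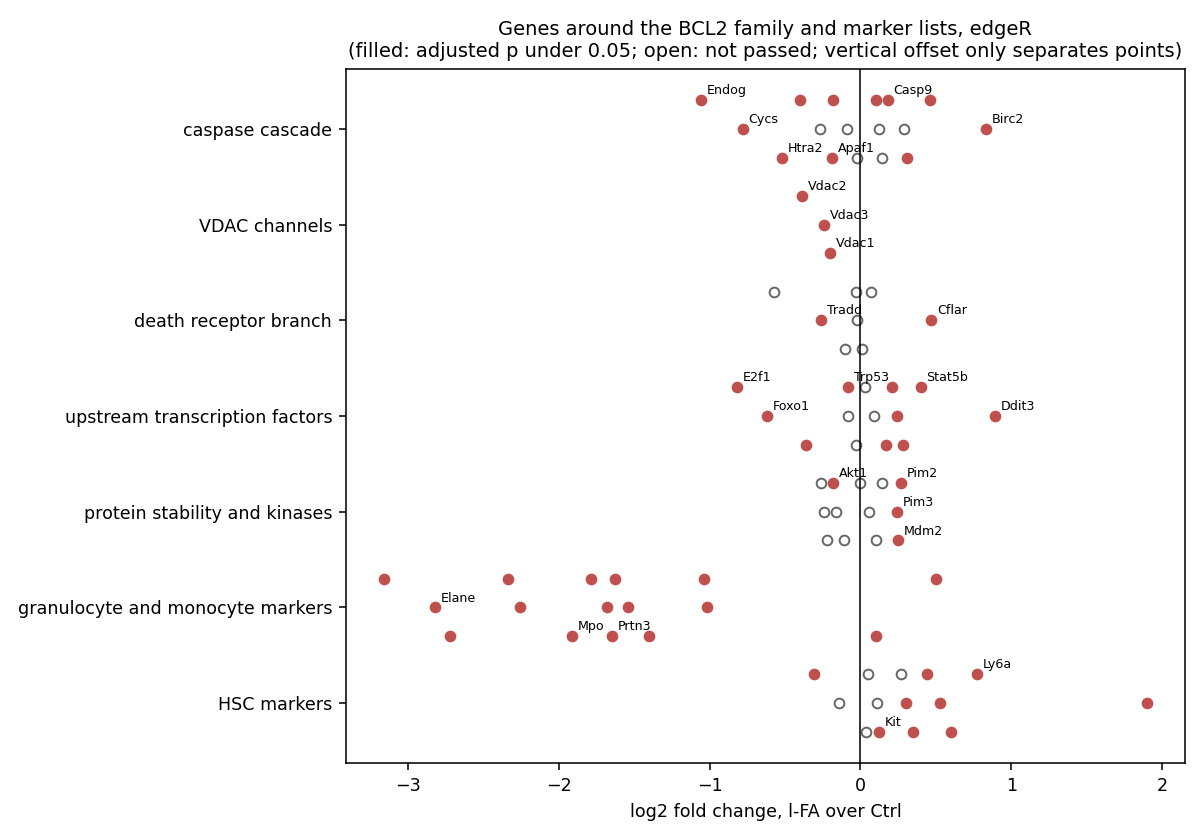
Log2 fold change of l-FA over Ctrl for each tested gene of 5 lists around the family and of 2 marker lists, with filled points for an adjusted p under 0.05 by edgeR. The caspase cascade extends from Endog at -1.06 to Birc2 at 0.83, the 3 VDAC genes lie below 0, and the granulocyte and monocyte markers reach -3.16.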

How the data were processed

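Amplified cDNA of sorted HSCs was sequenced (3 Ctrl and 3 l-FA libraries). The deposited table holds raw read counts of each gene as whole numbers, and FPKM values that the authors derived from them by gene length and library total. The submitters' processing notes name HISAT2, SAMtools 1.3.1, StringTie, edgeR and the build GRCm39, and the paper's methods name DESeq2. Coordinates are those of the deposited table. Family genes and all lists were chosen with earlier results of these data known.

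The counts entered edgeR 4.0.16 under R 4.3.3 (TMM, filterByExpr, glmQLFit, glmQLFTest, no covariate), with Benjamini-Hochberg adjustment over 16520 genes. The standard error is the size of the log2 fold change divided by the square root of F, and 95% intervals use the t quantile of the fit. The code was tested on simulated data. CPM used TMM-normalized library sizes, and log2 CPM a prior of 0.5 counts. Totals of 19287735 to 20380610 counts per library limit precision mainly for genes of few counts, and counting error covers only part of the error of amplified cDNA. The smallest two-sided exact permutation p for 3 against 3 libraries is 0.1, so no such test is given. No list was tested as a set.

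Named genes were the 10 family genes, every tested BCL2 relative, up to 4 genes of largest change past the test in each pathway list, Trp53, Apaf1, Casp9 and Cycs whatever their values (1 further gene of this rule is not reported here), sorting markers, the top granulocyte marker by level, and the 3 genes most like Bid. Overlapping genes and the genes of the closing observations were named after their values were seen. Promoter windows are from RefSeq (GRCm38.p6), and principal transcripts from GENCODE M21. Protein sequences were not used here. Alternatives were upper-quartile or RLE scaling, a block for the replicate number, each library left out in turn, a stricter filter (every library at 10 counts or more) or none, glmTreat against a 1.2-fold change, DESeq2 1.42.0, a prior of 1 count, other level scales, and, added after seeing the data, principal transcript lengths.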

Additional observations from a re-analysis of the deposited data

How the results depend on the processing

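The number of family genes called was 4 under each alternative except the 1.2-fold test, which left 2 (Bid and Bbc3), and 4 of the fits without 1 library. Bid and Bbc3 passed under all 13 alternatives. Under the 1.2-fold test Mcl1 (log2 0.17, adjusted p = 1.0 from edgeR) and Bax (-0.41, adjusted p = 0.0934 from edgeR) did not pass, and 4516 genes did. Over all genes, calls past 2-fold numbered 1946, but 3335 with no filter and 930 when every library had to reach 10 counts, since the number of genes tested changes with the filter. With 1 library left out in turn, members called ranged from 3 to 6 of 10, beside 7459 to 7733 of the 16852 to 17016 genes tested. Log2 fold changes then ranged from -0.07 to 0.01 for Bcl2, -0.68 to -0.20 for Bcl2l1, 0.13 to 0.19 for Mcl1 and 0.27 to 0.78 for Bak1. They ranged from -0.49 to -0.27 for Pmaip1, -0.42 to -0.09 for Bcl2l11, -0.16 to 0.11 for Bad and -0.29 to 0.50 for Bcl2a1b. Casp9 lost its call without Ctrl replicate 1, Ctrl replicate 2 or l-FA replicate 3, Trp53 without replicate 1 or 2 of either group, and Apaf1 without any library but Ctrl replicate 3. The median log2 fold change of all genes was 0.003, and at most 0.027 under another scaling.

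Replicate numbers are shared by the groups, but deviations of same-numbered libraries correlated at 0.019, -0.014 and -0.035, so the numbers were not taken as pairs. With the replicate number as a block, edgeR called 7405 genes in place of 8336 and the same number of family genes, 4, with log2 fold changes of -0.48 for Bid, -0.40 for Bax, 0.43 for Bbc3 and 0.17 for Mcl1. Trp53, Apaf1 and Casp9 did not pass under the block. The cause of these changes was not tested. Depth limits genes of few counts, Bak1 among the family genes.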

Other observations

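Genes of other forms of cell death were looked at after the values were seen, and are given as values. Of 5 necroptosis genes, 2 were higher and 1 lower in l-FA by edgeR, beside 25.5% higher and 25.0% lower among all genes tested. Zbp1, a sensor that starts necroptosis, had 104, 136 and 153 counts in Ctrl and 256, 213 and 240 in l-FA (log2 0.77, adjusted p = 0.00472 from edgeR). Tnfaip3, the gene of the ubiquitin editor A20, was higher as well (log2 0.52, adjusted p = 0.00511 from edgeR). Ripk3, the kinase of the pathway, was lower by little (log2 -0.12, adjusted p = 0.0147 from edgeR), and Mlkl, the executioner, had a log2 fold change of 0.07 and did not pass (95% interval -0.03 to 0.17).

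Of 9 tested genes of pyroptosis and inflammasomes, 4 were higher and 1 lower, 5 of 9 in all beside 50.5% of all genes tested. Nlrc4, an inflammasome sensor, had 60, 69 and 70 counts in Ctrl and 124, 139 and 133 in l-FA (log2 0.91, adjusted p = 0.000969 from edgeR). Il18, the cytokine that inflammasomes release, rose from 10.6 ± 0.0886 to 16.0 ± 0.176 CPM (log2 0.59, adjusted p = 0.000436 from edgeR). The pore gene Gsdmd was at 130.0 ± 6.41 CPM in Ctrl and 131 ± 3.90 in l-FA (log2 0.01, 95% interval -0.10 to 0.12). Casp1, which cleaves it, had a log2 fold change of 0.00 (95% interval -0.21 to 0.22), and neither passed.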
